A study of Homo sapiens with 9 samples.

Results

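Gene expression was compared between HT1080 cells with and without methylthioadenosine phosphorylase (MTAP), using 6 of the series' 9 Affymetrix U133 Plus 2.0 arrays. Per the labels, 3 arrays were MTAP-negative and 3 MTAP-positive, all from untreated cells of this human fibrosarcoma line kept in DMEM. The other 3 arrays, from MTAP-positive cells given 10 µM of the MTAP inhibitor MT-DADMe-ImmA for 48 hours, entered the model only to estimate the spread. Arrays within a group are biological replicates, per the series' design text. The sources used here do not say how MTAP-positive cells arose or whether a line was a clone, so MTAP and any other difference between the lines cannot be told apart. The comparison covered all 17466 non-control probe sets with values, read as 9453 genes, or 9452 without MTAP.

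MTAP splits methylthioadenosine, which polyamine synthesis leaves behind, into an adenine and a sugar phosphate that are recycled to AMP and methionine. Cells without the enzyme accumulate methylthioadenosine, which inhibits the arginine methyltransferase PRMT5. The gene lies on the short arm of chromosome 9 beside the tumour suppressor CDKN2A and is often lost with it in tumours. MTAP mRNA read 4.41, 4.25 and 5.02 on the 3 MTAP-negative arrays and 11.63, 11.74 and 11.37 on the MTAP-positive arrays (log2). The groups lay far apart, in the direction of the labels. Because signal below 6.64 (log2 of 100) was not shown to be above background, the rise in MTAP was at least 30.6-fold.

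Of 9452 genes, 929 were higher and 502 lower in MTAP-positive cells (limma, Benjamini-Hochberg adjusted p below 0.05), which is 9.83% and 5.31% of the genes and 15.1% together. Counted by probe set, 10.0% were higher and 4.78% lower, 14.8% together. With the replicate numbers as a block, the counts were 1258 and 782. The share of changed genes that were higher was 64.9%, and it became 46.0% when each array was centred on its median and 47.7% after a renewed quantile normalisation. No changed gene turned its sign on centring, which moved the median of all genes from 0.02 to -0.06 (log2). Without MTAP-negative replicate 3 the counts were 563 and 250, without MTAP-negative replicate 2 they were 616 and 297, without MTAP-positive replicate 3 they were 601 and 316, and without MTAP-positive replicate 1 they were 618 and 357. Of the 1431 changed genes, 43.0% differed by less than 1.5-fold, and 118 genes rose and 30 fell by at least 2-fold. A core of 387 changed genes, 294 higher and 93 lower, kept their call, wherever they had a value, in each of the other fits: with the covariate of RNA integrity given below, the block or only 2 groups, other scalings, filters and probe set choices, and without any single array. Of these 387, 122 also passed without MTAP-negative replicates 2 and 3 together, which leaves 1 MTAP-negative array. Core genes named in the text below are said to belong to the core. Where the fit without these 2 arrays is mentioned, the core genes that passed it are named.

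RNA integrity differed between arrays. The ACTB control is read by probe sets at the 5′ end, the middle and the 3′ end of the transcript, and labelling that starts at the 3′ end leaves broken RNA with a weak 5′ signal. The 5′ probe set read 12.23, 11.84 and 10.53 on MTAP-negative arrays 1 to 3 and 12.74, 13.11 and 12.05 on MTAP-positive arrays 1 to 3 (log2). The 3′ probe set lay between 13.97 and 14.13 on all 6 arrays. MTAP-negative replicate 3 had the weakest 5′ signal, and the groups overlapped through MTAP-positive replicate 3. The 5′ minus 3′ difference was -2.50 ± 0.90 in MTAP-negative and -1.43 ± 0.45 in MTAP-positive cells (SD, n = 3), a gap of 1.07. An exact two-sided permutation test gave p = 0.2, and 3 against 3 arrays cannot go below 0.1. The middle minus 3′ difference was -1.16 ± 0.25 against -0.73 ± 0.21 (SD, n = 3). GAPDH moved the same way with smaller gaps, its 5′ probe set reading 13.78, 13.63 and 13.01 against 13.94, 14.01 and 13.70. With the ACTB 5′ minus 3′ difference as a covariate 501 genes passed, and all 1431 kept their direction. The 3 ordinary ACTB probe sets differed by -0.07 to -0.01 and did not pass. Without MTAP-negative replicates 2 and 3, the arrays of lowest ratio, 115 genes were higher and 30 lower.

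**Figure D1:**
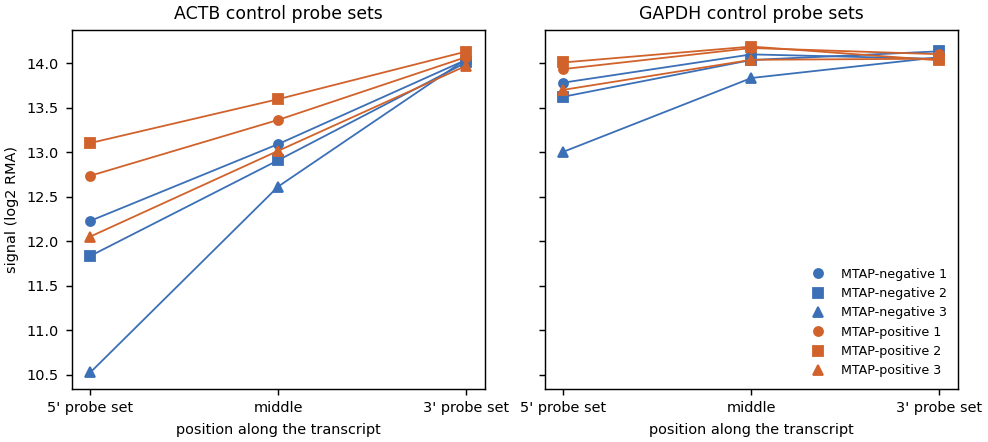
Signal (log2 RMA) of the 5′, middle and 3′ control probe sets of ACTB (left) and GAPDH (right), one line per array, blue for MTAP-negative and orange for MTAP-positive cells. The 3′ ends meet between 13.97 and 14.14 on every array, while the 5′ end of ACTB ranges from 10.53 on MTAP-negative replicate 3 to 13.11 on MTAP-positive replicate 2.

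Several of the largest changes were in genes of the cell surface, the matrix and transcription. KLF9, a zinc finger transcription factor that responds to hormones, read 7.17, 6.84 and 6.67 on the MTAP-negative arrays and 8.91, 8.94 and 9.14 on the MTAP-positive arrays (log2). The groups were well separated, and KLF9 was 4.31-fold higher (2.11 ± 0.14, log2 ± SE; adjusted p = 5.04e-05). CEMIP, a hyaluronan-binding protein needed to degrade hyaluronan, read 6.95, 7.02 and 6.84 against 8.55, 8.54 and 10.18. CEMIP was thus 4.44-fold higher on average, with MTAP-positive replicate 3 far above the other MTAP-positive arrays. RDH10, the retinol dehydrogenase of retinoic acid synthesis, read 8.0, 7.96 and 7.79 against 9.75, 9.82 and 9.95, a 3.79-fold rise (1.92 ± 0.12, adjusted p = 4.38e-05).

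Other large rises were of secreted and surface proteins. FAM20C, the Golgi kinase that phosphorylates secreted proteins, rose 3.42-fold, and the collagen-associated protein CTHRC1 3.4-fold. The adhesion protein FLRT3 rose 3.65-fold, the GPI-anchored protein LYPD1 3.78-fold and the leucine-rich repeat protein LRRC17 2.86-fold. PMEPA1, a TGF-beta target that dampens SMAD signalling, rose 3.25-fold. TXNIP, an inhibitor of thioredoxin and of glucose uptake, read 8.58, 8.67 and 8.67 against 10.55, 10.34 and 11.36, a 4.31-fold rise. GBP2, a guanylate-binding protein induced by interferon, rose 3.08-fold, the depalmitoylase ABHD17C 3.18-fold, and the AMPA receptor auxiliary protein CNIH3, whose MTAP-negative mean lay below 6.64, at least 3.14-fold. The genes in this and the preceding paragraph belonged to the core, and all but CEMIP, LRRC17 and GBP2 passed without MTAP-negative replicates 2 and 3.

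The largest falls included secreted proteins, a membrane pump and enzymes. SBSN, a secreted protein of stratified epithelium, read 8.2, 7.94 and 8.24 on the MTAP-negative arrays and 5.42, 5.61 and 5.64 on the MTAP-positive arrays (log2). The MTAP-positive arrays all lay below 6.64, so SBSN was at least 2.79-fold lower (adjusted p = 1.75e-05). KITLG, the ligand of the receptor tyrosine kinase KIT, read 7.67, 8.64 and 8.21 against 6.25, 6.95 and 6.29 and was at least 2.89-fold lower. DLEU2, a long noncoding host RNA of miRNAs, was at least 2.46-fold lower. The phospholipid flippase ATP8B1 fell 2.36-fold, the FERM-domain protein EPB41L4B 2.36-fold, the phosphatase regulator PHACTR2 2.20-fold and the MYB relative MYBL1 2.15-fold. The dimethylarginine hydrolase DDAH1 read 11.89, 12.01 and 11.98 against 10.43, 10.81 and 11.16, a 2.23-fold fall in an abundant mRNA. UAP1, which makes the sugar nucleotide UDP-N-acetylglucosamine, read 12, 12.31 and 11.98 against 10.93, 11.16 and 10.98 and fell 2.10-fold. The groups did not overlap for any of these genes, and all of them belonged to the core, of which SBSN and UAP1 passed without MTAP-negative replicates 2 and 3. Over all genes the groups did not overlap for 34.8%, with MTAP-positive cells higher for 19.6% and lower for 15.2%. Among the 1431 changed genes they did not overlap for 1429, so for a changed gene this adds little to its call.

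**Figure D2:**
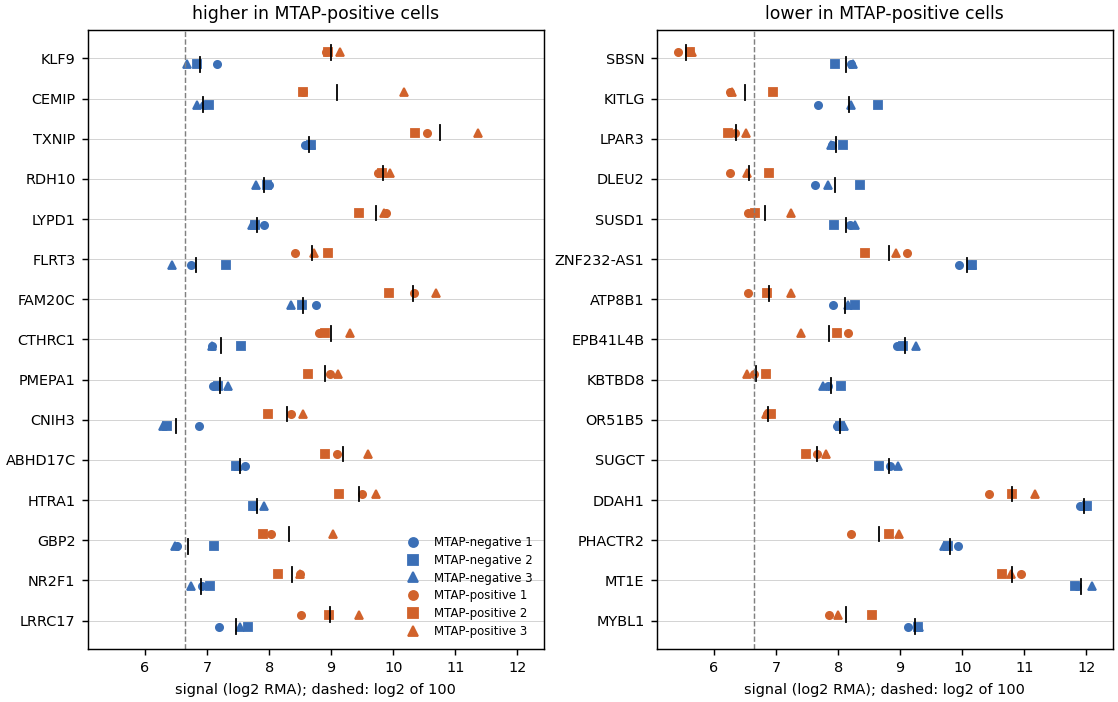
Signal (log2 RMA) on each MTAP-negative (blue) and MTAP-positive (orange) array for 15 large rises (left) and 15 large falls (right), with black bars at the group means and a dashed line at log2 of 100 (6.64). Every gene has its 6 arrays in 2 separate groups, which the choice of the largest changes required. CEMIP and TXNIP owe part of their mean to a high MTAP-positive replicate 3.

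Each mRNA can be read by several probe sets, and genes read the same way by all of them rest on more than a single set of probes. Of 3984 genes with at least 2 probe sets with values, 1022 had at least 1 changed probe set and 228 had all of them changed. Among 1382 genes with 3 or more, 41 rose and 8 fell on every probe set. NR4A2, an orphan nuclear receptor, and TXNIP led the rises with median changes of 2.57 and 2.26 (log2) over 3 probe sets each, followed by the growth factor VEGFA (1.74 over 4), the adducin ADD3 (1.49 over 4), KRCC1 (1.48 over 3) and FN1 (1.34 over 4). The falls were led by SSR3, a subunit of the translocon-associated complex of the ER (-0.95 over 3), and the Hippo pathway scaffold WWC1 (-0.86 over 3). The transcription factor BCL11A (-0.78 over 4) and the RNA-binding protein LARP4 (-0.67 over 3) followed. NR4A2, TXNIP, VEGFA, ADD3, KRCC1, FN1, SSR3 and WWC1 belonged to the core. BCL11A lost its call with the ACTB covariate and without MTAP-negative replicate 3. LARP4 lost its call with that covariate and without any of the 3 MTAP-negative arrays, among other settings. In 7 genes, 1 probe set rose while another fell. The widest gap was in LARP6, which binds collagen mRNAs, with 0.84 ± 0.12 on 1 probe set and -0.63 ± 0.13 on the other (log2 ± SE). PDCD2 (0.74 and -0.40), IDS (0.62 and -0.48), BICD1 (0.61 and -0.47) and SSR1 (0.45 and -0.62) also split, so no direction is given for these genes.

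Among the 500 most abundant genes, 38 rose and 16 fell, against 9.83% and 5.31% of all genes. The leading changes, headed by FN1, included a rise in TSC22D1, a leucine zipper protein induced by TGF-beta (1.23 ± 0.10, log2 ± SE). Others among them were rises in HPCAL1, a neuronal calcium sensor (1.22 ± 0.13), and PHLDA1, a pleckstrin-domain protein (0.96 ± 0.11). TSC22D1 read 11, 11.14 and 11.16 against 12.23, 12.28 and 12.47. These 3 genes belonged to the core and passed without MTAP-negative replicates 2 and 3. The share of genes changed was 17.7% among the 2363 genes with the lowest mean level and 13.4% among the 2363 with the highest.

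Among 37 lists of genes by function, those of the circadian clock had the highest share of rises in the main fit. With arrays centred 7 of 18 clock genes rose, a smaller share than the 7 of 15 retinoic acid genes. With the ACTB covariate the rises were 7 and 6, again a smaller share for the clock. The clock is a feedback loop in which the activators CLOCK or NPAS2 with ARNTL bind E-boxes and switch on their own repressors of the PER, CRY and BHLHE40 families, while DBP, TEF and NFIL3 act on a second element at the loop's outputs. Promoters of the clock genes that rose are shown to let a reader see the E-box. The 250 bases before the gene start (RefSeq, GRCh38.p14) were searched for the palindrome CACGTG, which reads the same on both strands and is given in capitals. It was found in 4 of the 9 rising clock genes that had a promoter in the table, and in 6.34% of 35116 promoters. CIART, a repressor of the activators, held 3 copies on the plus strand at chr1:150282304-150282553, and at least 3 copies were found in 0.0797% of promoters. The others shown are BHLHE41, on the minus strand at chr12:26125038-26125287, and TEF, on the plus strand at chr22:41367205-41367454.
CIART: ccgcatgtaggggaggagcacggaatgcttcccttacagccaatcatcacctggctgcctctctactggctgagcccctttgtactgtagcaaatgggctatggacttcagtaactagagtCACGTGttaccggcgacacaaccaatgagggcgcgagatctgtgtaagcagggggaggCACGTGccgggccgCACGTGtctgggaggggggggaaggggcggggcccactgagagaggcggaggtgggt
BHLHE41: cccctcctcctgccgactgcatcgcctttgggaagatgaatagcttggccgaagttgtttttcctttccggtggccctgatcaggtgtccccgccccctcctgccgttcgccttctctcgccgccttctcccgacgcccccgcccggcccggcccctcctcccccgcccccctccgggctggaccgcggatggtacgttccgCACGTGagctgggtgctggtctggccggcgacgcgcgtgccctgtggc
TEF: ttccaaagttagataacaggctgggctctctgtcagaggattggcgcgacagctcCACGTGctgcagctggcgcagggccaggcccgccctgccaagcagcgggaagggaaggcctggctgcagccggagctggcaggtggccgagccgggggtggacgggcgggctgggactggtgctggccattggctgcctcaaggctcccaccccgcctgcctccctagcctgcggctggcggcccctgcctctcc

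Of 18 clock genes with values, 10 rose and none fell by limma (55.6% and 0%, against 9.83% and 5.31% of all genes). The median change was 0.42 (log2) against 0.02 over all genes. At an unadjusted limma p below 0.05 the counts were 11 and 2. BHLHE41, a repressor that competes for E-boxes, read 6.32, 6.14 and 6.03 on the MTAP-negative arrays and 7.57, 7.27 and 8.29 on the MTAP-positive arrays, at least 2.09-fold higher. The activator NPAS2 read 8.76, 8.83 and 8.88 against 9.74, 9.66 and 9.99 (0.97 ± 0.11, log2 ± SE, adjusted p = 7.50e-04), and all 5 of its probe sets rose. PER2 read 6.71, 6.44 and 6.68 against 7.80, 7.48 and 7.32, at least 1.85-fold higher. No array of these genes overlapped the other group, as in 1429 of the 1431 changed genes. The output factors TEF (at least 1.48-fold) and NFIL3 (1.68-fold) rose as well, and BHLHE41, NPAS2, PER2, TEF and NFIL3 belonged to the core. BHLHE40 (1.04 ± 0.22) lost its call with the ACTB covariate, and DBP (0.93 ± 0.19) did not pass when values were raised to 6.64. PER3, CSNK1D and CIART rose by 0.65, 0.43 and 0.41, and each lost the call without MTAP-negative replicate 2, MTAP-positive replicate 1 or MTAP-positive replicate 3, among other settings. For PER3 the limma adjusted p was 0.104 without MTAP-negative replicate 2 and lay between 0.00435 and 0.104 over the settings tried. The repressor CRY1 read 9.43, 9.36 and 9.37 against 9.43, 9.48 and 9.47 and did not pass (adjusted p = 0.674). The activators CLOCK (-0.47 ± 0.25) and BMAL1, also known as ARNTL (0.30 ± 0.10), did not pass either. The kinase CSNK1E, at -0.35 ± 0.11, missed the threshold (adjusted p = 0.0604) but was lower with the replicate block (0.036). Without MTAP-negative replicates 2 and 3 NPAS2 alone passed. The median was 0.067 over the 10 clock genes left by a filter on low levels at the 40th percentile, of which 4 rose and 1 fell.

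**Figure D3:**
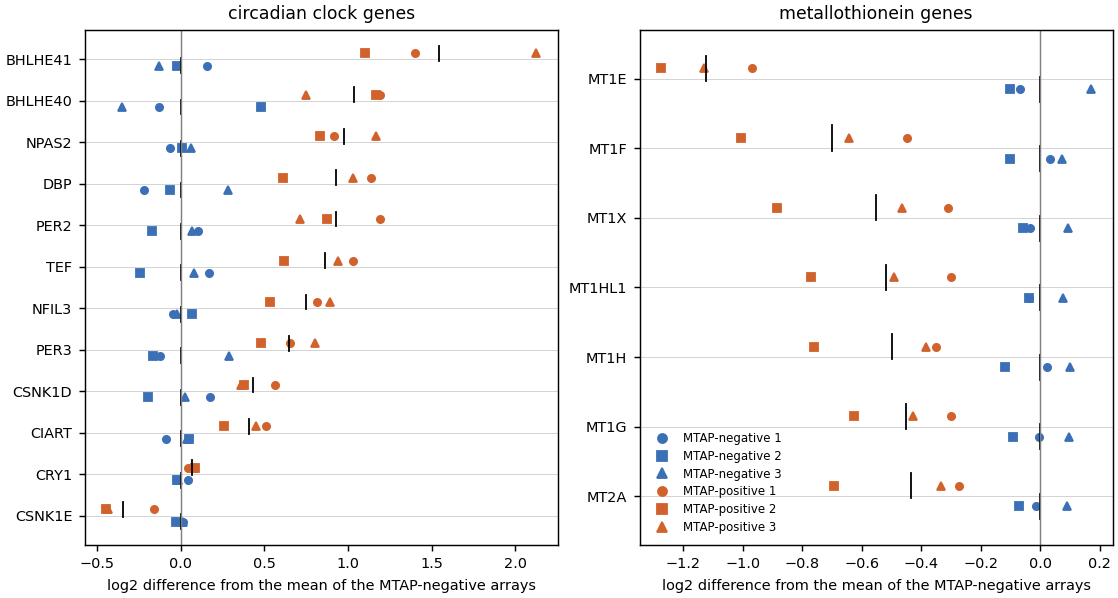
Log2 difference of each array from the mean of the MTAP-negative arrays, for the 10 clock genes that rose with CRY1 and CSNK1E (left) and for the 7 metallothionein genes (right). Bars are group means. The MTAP-positive arrays (orange) lie to the right of 0 for the 10 clock genes and to the left of 0 for every metallothionein, where MTAP-positive replicate 2 is the lowest array of each gene.

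The metallothioneins fell together. They are small cysteine-rich proteins that bind zinc and copper, and metals switch their genes on through the factor MTF1 and metal response elements. Promoters of 3 metallothionein genes on the plus strand of chromosome 16 are shown (RefSeq, GRCh38.p14, the 250 bases before the start), with each match to the element's core TGCGCNC or TGCACNC on either strand in capitals. MT1H (chr16:56669564-56669813) held 8 matches, MT2A (chr16:56608334-56608583) 7 and MT1X (chr16:56682220-56682469) 4. At least 1 match was found in 24.8% of all promoters and at least 3 in 1.58%.
MT1H: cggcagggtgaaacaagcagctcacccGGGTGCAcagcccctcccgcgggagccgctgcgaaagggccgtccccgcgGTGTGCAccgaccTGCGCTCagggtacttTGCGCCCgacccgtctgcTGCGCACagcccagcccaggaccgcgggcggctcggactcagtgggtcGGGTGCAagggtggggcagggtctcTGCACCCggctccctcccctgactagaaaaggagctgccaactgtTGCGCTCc
MT2A: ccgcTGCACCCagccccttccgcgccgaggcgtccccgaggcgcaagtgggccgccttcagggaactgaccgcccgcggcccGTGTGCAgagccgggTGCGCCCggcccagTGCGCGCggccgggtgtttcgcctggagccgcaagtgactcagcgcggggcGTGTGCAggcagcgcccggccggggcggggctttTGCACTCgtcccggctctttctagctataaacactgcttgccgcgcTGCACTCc
MT1X: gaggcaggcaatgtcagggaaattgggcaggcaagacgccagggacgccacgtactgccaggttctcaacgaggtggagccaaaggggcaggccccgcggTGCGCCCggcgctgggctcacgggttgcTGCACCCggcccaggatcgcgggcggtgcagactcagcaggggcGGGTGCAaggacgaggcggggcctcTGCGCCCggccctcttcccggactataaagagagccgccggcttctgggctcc

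All 7 metallothionein genes with values fell, on 9 of their 10 probe sets, with a median change of -0.52 (log2). Of all genes, 5.31% fell. MT1E read 11.85, 11.82 and 12.09 on the MTAP-negative arrays and 10.95, 10.65 and 10.79 on the MTAP-positive arrays, a 2.18-fold fall (adjusted p = 6.21e-04). MT1F read 10.83, 10.69 and 10.87 against 10.35, 9.79 and 10.15, a 1.62-fold fall. The abundant MT2A read 13.19, 13.13 and 13.29 against 12.93, 12.51 and 12.87, a 1.35-fold fall. MT1X, MT1HL1, MT1H and MT1G fell by 0.45 to 0.55. These genes are near-identical copies that share probes, so their values are not independent and the members cannot be told apart with certainty. MT1E belonged to the core and passed without MTAP-negative replicates 2 and 3, while the other 6 lost their call with the ACTB covariate. Of the list of 33 zinc and copper genes, whose 7 falls were these, 2 fell without MTAP-negative replicate 3, 3 without MTAP-negative replicate 1 or MTAP-positive replicate 3, and 4 without MTAP-negative replicate 2. Its other 26 genes had 3 rises, in the zinc transporter SLC30A9, the copper pump ATP7B and the copper chaperone CCS, and none fell (limma; 7 and 2 at an unadjusted p below 0.05). Those 3 rises all lost their call without MTAP-positive replicate 3.

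Iron genes moved in both directions. Of 20 genes with values, 3 rose and 5 fell (15% and 25%, against 9.83% and 5.31% of all genes). The median was -0.16 (log2). TFRC, the transferrin receptor that brings iron into the cell, read 12.70, 12.63 and 12.66 against 11.72, 11.99 and 11.93, a 1.72-fold fall. TFRC belonged to the core but did not pass without MTAP-negative replicates 2 and 3. The iron importer SLC11A2 fell by 0.60 ± 0.13 and the heme oxygenase HMOX1 by 0.57 ± 0.13 (log2 ± SE). FBXL5, the iron-sensing ligase subunit that marks IRP2 for decay, rose by 0.65 ± 0.12 and the ferric reductase CYBRD1 by 0.78 ± 0.17. The ferritin light chain FTL differed by 0.11 ± 0.10 and did not pass. The calls of SLC11A2, HMOX1 and FBXL5 were lost with the ACTB covariate, and that of CYBRD1 with the mean over probe sets. SLC11A2 also lost its call without MTAP-negative replicate 3, and HMOX1 without MTAP-negative replicates 1 or 2 or MTAP-positive replicate 3.

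Genes of retinoic acid synthesis, transport and response were among the rises. Retinol is oxidised to retinoic acid, which is carried by CRABP proteins and acts through RAR and RXR receptors in the nucleus. Of 15 genes with values, 7 rose and none fell (46.7% and 0%, against 9.83% and 5.31% of all genes). By limma at an unadjusted p below 0.05, the counts were 9 and 0. The median change was 0.43 (log2). Beside RDH10, the receptor partner RXRA read 8.63, 8.4 and 8.58 against 9.15, 9.12 and 9.15, a 1.52-fold rise. The carrier CRABP2 read 6.94, 6.83 and 7.10 against 8.11, 7.80 and 7.69, a 1.88-fold rise. NR2F1, an orphan nuclear receptor that retinoic acid induces, read 6.92, 7.05 and 6.74 against 8.49, 8.14 and 8.49, a 2.77-fold rise. These 4 genes belonged to the core, and RDH10 and NR2F1 passed without MTAP-negative replicates 2 and 3. A filter on low levels at the 40th percentile left 10 genes of the list, of which 4 rose. DHRS3, which turns retinal back to retinol and is a target of the pathway, rose at least 1.90-fold but lost its call without MTAP-negative replicates 1 or 2 or MTAP-positive replicate 3. PLAAT4, a phospholipase that retinoids induce, read 5.25, 5.26 and 5.41 against 7.46, 6.30 and 7.75, at least 1.44-fold higher, and lost its call when values were raised to 6.64. The retinal reductase RDH11 differed by -0.07 ± 0.10.

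The IGF axis had 6 of 14 members higher and 1 lower (42.9% and 7.14%, against 9.83% and 5.31% of all genes). Its median was 0.48 (log2). HTRA1, a secreted protease that cuts IGF-binding proteins, read 7.74, 7.74 and 7.92 against 9.49, 9.13 and 9.72, a 3.13-fold rise. IRS1, the adaptor of the insulin and IGF receptors, read 8.81, 8.89 and 8.87 against 10.07, 10.08 and 10.35, a 2.49-fold rise (adjusted p = 2.30e-04). The binding protein IGFBP7 and the hormone STC2, which restrains the protease PAPPA, rose 1.65-fold and 1.73-fold. All 4 belonged to the core, and HTRA1 and IRS1 passed without MTAP-negative replicates 2 and 3. GRB10, an adaptor that restrains these receptors, read 7.99, 8.10 and 8.03 against 7.50, 6.78 and 7.49 but its call was lost with the ACTB covariate (limma adjusted p = 0.174; 0.0134 to 0.174 over the settings tried) and without any of the 3 MTAP-negative arrays. Without MTAP-negative replicate 3 or MTAP-positive replicate 3, 4 members of the axis rose.

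Enzymes and chaperones that fold and cross-link collagen had 9 of 21 members higher and none lower. The shares were 42.9% and 0%, against 9.83% and 5.31% of all genes. By limma at an unadjusted p below 0.05, the counts were 12 and 1. The median was 0.41 (log2). LOXL1, a lysyl oxidase that cross-links elastin and collagen, read 8.86, 8.75 and 8.57 against 9.75, 9.59 and 9.63, a 1.91-fold rise. LOXL2, its abundant relative, read 12.38, 12.40 and 12.37 against 12.86, 12.96 and 13, a 1.47-fold rise, and the collagen-binding protein SPARC rose 1.47-fold. These 3 belonged to the core, but they did not pass without MTAP-negative replicates 2 and 3. The prolyl hydroxylase subunit P4HA1 (0.61 ± 0.13, log2 ± SE) and the chaperone SERPINH1 (0.48 ± 0.10) lost their call with the ACTB covariate, under which 3 members rose. The count was 5 without MTAP-negative replicate 3 or MTAP-positive replicate 3, and 6 without MTAP-negative replicate 2 or MTAP-positive replicate 1. PPIB read 12.26, 12.10 and 11.41 against 12.45, 12.10 and 12.17 and did not pass.

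Guidance ligands and receptors had 10 of 26 members higher and none lower (38.5% and 0%, against 9.83% and 5.31% of all genes). By limma at an unadjusted p below 0.05, the counts were 14 and 0. The median was 0.36 (log2). PLXNA4, a semaphorin receptor, read 6.34, 6.19 and 6.29 against 8.04, 7.57 and 7.70, at least 2.19-fold higher. EFNB2, a membrane-bound ligand of EPH receptors that also marks arteries, read 8.75, 8.47 and 8.58 against 9.91, 9.71 and 9.47, a 2.14-fold rise. The ligands EFNB3 (1.95-fold), SEMA4B (1.81-fold) and NTN4 (1.70-fold) rose too. These 5 belonged to the core, but they did not pass without MTAP-negative replicates 2 and 3. SEMA3A read 6.66, 6.66 and 6.51 against 7.37, 8.83 and 7.58, with MTAP-positive replicate 2 far above the others, and its call was lost with the ACTB covariate (limma adjusted p = 0.214; 0.0207 to 0.214 over the settings tried) and without any of the 3 MTAP-negative arrays. The receptor EPHA2 differed by -0.20 ± 0.14.

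A list of transcription factors held mostly the HOX, KLF, SOX and ETS families. The TWIST, SNAI, ZEB, RUNX and CEBP families and a few others were also on it. Of 57 members with values, 13 were higher and 1 lower (22.8% and 1.75%, against 9.83% and 5.31% of all genes). The median was 0.31 (log2). Beside KLF9, the T-box factor TBX3 read 7.90, 7.82 and 7.68 against 8.75, 8.58 and 8.48 (1.74-fold), and CEBPB, a factor of inflammation and fat cell formation, rose 1.64-fold. These 3 belonged to the core, and KLF9 passed without MTAP-negative replicates 2 and 3. SOX9, a factor of cartilage, read 10.42, 10.69 and 9.33 against 11.23, 12.32 and 11. SOX9 barely passed (limma adjusted p = 0.0491), and the value lay between 0.00539 with the replicate block and 0.318 with the ACTB covariate. ETS2 was the member that fell, by 0.45, but no member fell with the ACTB covariate or in at least 1 fit without a single array. The list had 4 rises with the ACTB covariate, 19 with the replicate block, 5 without MTAP-negative replicate 3, 6 without MTAP-positive replicate 1 and 8 without MTAP-negative replicate 1.

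Among 30 G protein-coupled receptors and RGS proteins with values 6 rose and 4 fell (20% and 13.3%, against 9.83% and 5.31% of all genes). Of these falls, 3 were receptors for lysophospholipids. LPAR3, a receptor for lysophosphatidic acid, read 7.91, 8.09 and 7.89 against 6.34, 6.23 and 6.51, at least 2.49-fold lower (adjusted p = 8.16e-05). LPAR1 read 7.05, 6.99 and 6.83 against 5.68, 5.39 and 5.16, at least 1.24-fold lower, and both belonged to the core and passed without MTAP-negative replicates 2 and 3. S1PR1, a receptor for sphingosine 1-phosphate, read 6.65, 7.07 and 6.89 against 6.13, 5.94 and 5.86, and its call was lost when values were raised to 6.64. The groups lay apart for each of the 3, but all 3 read below 6.64 on every MTAP-positive array. A gene also dim with inhibitor has values only if all 3 MTAP-negative arrays reach 6.64. For such a gene the separation is set by the filter and adds no support. The serotonin receptor HTR7 rose 1.66-fold and belonged to the core, but did not pass without those 2 arrays. F2R, the thrombin receptor, was 2.79-fold higher on the probe set read here but differed by -0.044 when read only from specific probe sets, so its direction is uncertain.

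Regulated secretion and ion channels held further rises. Of 38 granins, synaptotagmins and SNARE proteins 9 rose and 1 fell (23.7% and 2.63%, against 9.83% and 5.31% of all genes). The synaptotagmin-like protein SYTL2 read 9.07, 9.20 and 9.07 against 9.96, 10.44 and 10.51, a 2.29-fold rise, and the SNARE protein STX1A rose 1.59-fold. Of 36 channels and pumps 8 rose and 2 fell (22.2% and 5.56%). ORAI3, a store-operated calcium channel, read 8.68, 8.95 and 8.74 against 9.95, 9.58 and 10.27 (2.21-fold). ITPR1, the receptor that releases calcium from the ER, read 7.25, 7.28 and 7.42 against 8.41, 8.21 and 8.32 (1.99-fold). SYTL2, STX1A, ORAI3 and ITPR1 belonged to the core, and of them ITPR1 passed without MTAP-negative replicates 2 and 3. Both list medians were near that of all genes, at 0.04 and 0.10, and the first turned to -0.04 on centring. The channels had 4 rises without MTAP-negative replicate 3 and 5 without MTAP-negative replicates 1 or 2 or MTAP-positive replicate 1.

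Of 43 PI3K, AKT and mTOR regulators 4 rose and 1 fell (9.30% and 2.33%), no more than the 9.83% and 5.31% of all genes. CASTOR1, the arginine sensor that restrains mTORC1, read 6.29, 6.26 and 6.46 against 7.90, 7.89 and 7.66, at least 2.25-fold higher (adjusted p = 2.82e-04). The pseudokinase TRIB2 rose 2.10-fold. CASTOR1 and TRIB2 belonged to the core, and CASTOR1 passed without MTAP-negative replicates 2 and 3. RRAGD, a GTPase that tethers mTORC1 to the lysosome, read 7.41, 6.83 and 7.46 against 6.47, 6.10 and 6.35 but its call was lost with the ACTB covariate (limma adjusted p = 0.119; 0.00151 to 0.119 over the settings tried). In the BMP and activin list, with 5 of 25 higher and 2 lower, the activin subunit INHBA rose at least 1.70-fold and the type I receptor ACVR1 1.59-fold. Both belonged to the core but did not pass without those 2 arrays. NOG, an antagonist of BMPs, read 8.62, 8.69 and 8.19 against 9.49, 9.22 and 9.63 and its call, too, was lost with that covariate (limma adjusted p = 0.0627; 0.00362 to 0.0627 over the settings tried).

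Of 31 contractile genes 4 rose (12.9%, against 9.83% of all genes). The focal adhesion protein TGFB1I1 was among them, at 10.93, 11.07 and 10.77 against 11.80, 11.52 and 11.75, a 1.70-fold rise. TGFB1I1 belonged to the core but did not pass without MTAP-negative replicates 2 and 3. Of 23 Notch genes 3 rose, and none passed with the ACTB covariate.

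Sugars and their carriers held some large changes. SLC2A12, a glucose transporter, read 6.37, 6.68 and 6.03 against 7.78, 8.16 and 8.4, at least 2.77-fold higher. GPC6, a heparan sulfate proteoglycan of the cell surface, read 6.88, 6.93 and 7.19 against 8.01, 8.43 and 8.99, a 2.79-fold rise. The chondroitin sulfotransferase CHST15 read 7.80, 7.86 and 8.16 against 7.02, 6.82 and 7.12, a 1.94-fold fall. No array of these 3 genes overlapped the other group, as in 1429 of the 1431 changed genes. MGAT4B, which branches N-glycans, rose 1.95-fold. These 4 genes belonged to the core, and SLC2A12 passed without MTAP-negative replicates 2 and 3. They came from lists of 24 sugar, lactate, nucleoside and phosphate transporters (2 higher, 1 lower), 29 proteoglycan genes (2 and 2) and 42 glycosylation genes (3 and 2). These lists had 6.90% to 8.33% higher and 4.17% to 6.90% lower, against 9.83% and 5.31% of all genes.

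Among surface and junction proteins, CD55, which shields cells from complement, read 9.35, 9.43 and 9.39 against 10.01, 10.19 and 10.32, a 1.72-fold rise. CLU, a secreted chaperone and complement inhibitor, rose 2.02-fold. In all, 2 of 14 complement and coagulation genes rose and 1 fell (14.3% and 7.14%, against 9.83% and 5.31% of all genes). DSP, which ties desmosomes to keratin filaments, read 7.38, 7.43 and 7.43 against 5.73, 6.5 and 6.14, at least 1.70-fold lower. The creatine transporter SLC6A8 rose 1.46-fold, among 4 rises and 2 falls of 27 amino acid transporters, a list with 1 rise without MTAP-negative replicates 2 or 3. CD55, CLU, DSP and SLC6A8 belonged to the core but did not pass without MTAP-negative replicates 2 and 3. AXL, a receptor tyrosine kinase, read 12.48, 12.46 and 12.33 against 12.05, 11.10 and 11.95 and missed the threshold (adjusted p = 0.062), but was lower with the replicate block (0.03). DANCR, a long noncoding RNA, fell 1.87-fold and lost its call with the ACTB covariate.

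In the proteasome list, 3 of 42 members rose and 1 fell (7.14% and 2.38%, against 9.83% and 5.31% of all genes). The rises were the immune subunits PSMB8 (8.97, 8.68 and 8.62 against 9.78, 9.54 and 9.69) and PSMB10 and the activator PSME1, while the constitutive subunit PSMB1 differed by 0.03 ± 0.13. Among chromatin remodelers, 9 of 70 rose (12.9%) and 2 fell (2.86%), led by CHD2 (1.92-fold higher) and the nucleosome-binding protein HMGN3 (1.88-fold lower). Among ubiquitin ligases, 10 of 97 rose and 4 fell (10.3% and 4.12%), near the 9.83% and 5.31% of all genes. With arrays centred 7 rose and 8 fell, and with the ACTB covariate 3 rose and 1 fell. Leaving out single arrays gave 6 to 9 rises and 2 to 4 falls. SKP2, the F-box protein that marks the inhibitor p27 for decay, read 10.29, 10.59 and 10.60 against 9.82, 9.72 and 9.78, a 1.65-fold fall. The mRNA decay factor ZFP36L1, among 5 rises (7.69%) and 2 falls (3.08%) of 65, rose 1.98-fold, and the antiproliferative BTG1 1.49-fold. UPP1, the uridine phosphorylase, fell 1.89-fold, among 1 rise and 4 falls of 32 pyrimidine genes. That list had 0 rises and 8 falls with arrays centred, and 2 to 5 falls without single arrays. In fatty acid oxidation, 7 of 51 rose and 6 fell, with PEX6, a peroxisome biogenesis factor, 1.86-fold higher and CPT1A, which carries fatty acids into mitochondria, 1.85-fold lower. PSMB8, PSME1, CHD2, HMGN3, SKP2, ZFP36L1, BTG1, UPP1 and PEX6 belonged to the core, though of them ZFP36L1 alone passed without MTAP-negative replicates 2 and 3, whereas PSMB10 and CPT1A lost their call with the ACTB covariate. The fatty acid list depended on single arrays, with 2 rises and 1 fall without MTAP-negative replicate 2, as did the chromatin list, with 1 rise without MTAP-negative replicate 3.

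Few genes of the machinery shared by all cells passed. By limma none of 51 nuclear pore genes did (0 higher and 10 lower at an unadjusted p below 0.05), 1 of 44 ER to Golgi traffic genes, 2 of 39 microtubule genes, 3 of 49 translation factors and 5 of 60 splicing factors, against 15.1% of all genes. With the replicate block 4 nuclear pore genes were lower. Mitochondrial ribosome and import genes had 1 rise and 5 falls of 85, and the lowest median of the 37 lists, -0.17 (log2). The falls were 9 with the replicate block, 11 with arrays centred and 2 without MTAP-negative replicates 2 or 3 or MTAP-positive replicate 3. TIMM8A, a chaperone of the intermembrane space, read 8.62, 8.66 and 8.91 against 7.96, 8.03 and 8.04, a 1.65-fold fall. PTBP2, a splicing repressor of neurons, read 8.10, 8.6 and 8.41 against 7.04, 7.44 and 7.52, a 2.05-fold fall. Both genes belonged to the core but did not pass without MTAP-negative replicates 2 and 3.

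**Figure D4:**
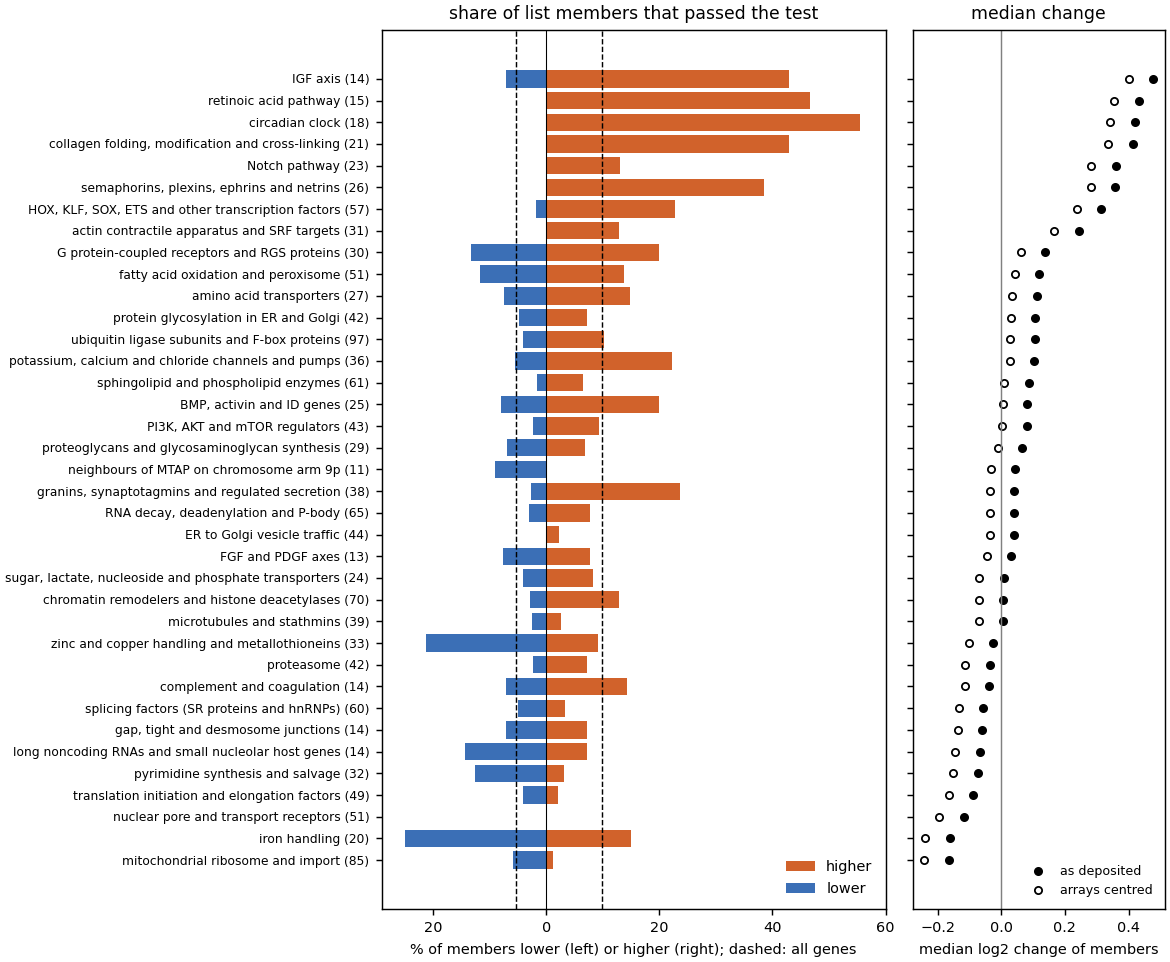
For 37 lists of genes by function (members with values in brackets), the share of members that were lower (blue, left) or higher (orange, right) in MTAP-positive cells, with dashed lines at the shares of all genes, 5.31% and 9.83%, and on the right the median log2 change as deposited and with arrays centred. IGF, retinoic acid, clock, collagen-processing, Notch and guidance genes stand at the top, where centring lowers the medians but leaves them above 0.

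Markers of other cell types showed no common shift. The 6 mesenchymal markers with values, among them VIM (13.82 to 14.07 on the 6 arrays), COL1A1 and CD44, included no changed gene (limma; 1 higher and 0 lower at an unadjusted p below 0.05). Of 16 epithelial markers KRT7 alone had values, and it read 6.79, 6.91 and 6.14 against 7.19, 6.46 and 7.24 and did not pass. Of 18 blood cell markers 2 had values, and the lysozyme gene LYZ read 4.83, 4.96 and 4.88 against 7.68, 7.61 and 6.76, at least 1.63-fold higher. LYZ belonged to the core, but it read below 6.64 on every MTAP-negative array. It had values only through arrays of MTAP-positive cells, with or without inhibitor, so the filter favoured its rise. The kinase LYN, also on that list, differed by -0.20 ± 0.14. Among endothelial markers TIE1 rose by 0.61, and FLT1 and ROBO4 did not pass. In the neural and melanocyte list MITF fell by 0.82. Of the 26 listed neighbours of MTAP on chromosome 9, 11 had values and MOB3B alone passed, 1.89-fold lower, while the ribosomal protein gene RPS6 differed by 0.12 ± 0.09. MOB3B, MITF and TIE1 lost their call with the ACTB covariate. TIE1 also lost it with arrays centred and without MTAP-positive replicates 1 or 3.

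Falls were unevenly spread over the chromosomes. Chromosome 1 held 100 of the 502 falls among its 910 genes (11%) and chromosome 10 held 51 among 376 (13.6%), against 5.31% of all genes. On chromosome 1 the excess of falls lay on 1 side of the widest gap between neighbouring genes with values. From LINC01128 to SRGAP2C, the side with the short arm, 78 of 512 genes fell (15.2%) and 24 rose (4.69%), with a median change of -0.16 (log2). Beyond the gap 22 of 398 fell (5.53%) and 40 rose (10.1%), with a median of 0.03. All 20 consecutive blocks of 25 genes on the LINC01128 side had a median below 0, from -0.34 to -0.07, whereas 158 of 366 blocks over all chromosomes did. The lowest stretch ran over 5 neighbouring blocks from CRYZ to IGSF3, ending shortly before the gap. There 34 of 125 genes fell (27.2%) and the median was -0.31. On chromosome 10, 14 of 15 blocks had a median below 0, and over the whole chromosome the median was -0.11.

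The shift was seen in each pair of same-numbered arrays. For the LINC01128 side of chromosome 1 the median difference was -0.13, -0.20 and -0.12 in pairs 1 to 3, against 0.04, -0.02 and 0.06 over all genes, and for chromosome 10 it was -0.09, -0.12 and -0.11. Over all settings tried, including that without MTAP-negative replicates 2 and 3, the median stayed between -0.24 and -0.13 on that side of chromosome 1 and between -0.19 and -0.10 on chromosome 10. Inhibitor-treated cells, which share the MTAP-positive line, differed from MTAP-negative cells by a median of -0.18 on that side of chromosome 1 and from untreated MTAP-positive cells by -0.03, and these comparisons share arrays with the main comparison. Falls named above that lie there are LPAR3, DDAH1, PTBP2 and S1PR1, whereas GBP2, DHRS3, PER3 and TIE1 rose from the same side. Chromosome 21 had a median of 0.15 and 19 rises among 101 genes (18.8%).

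**Figure D5:**
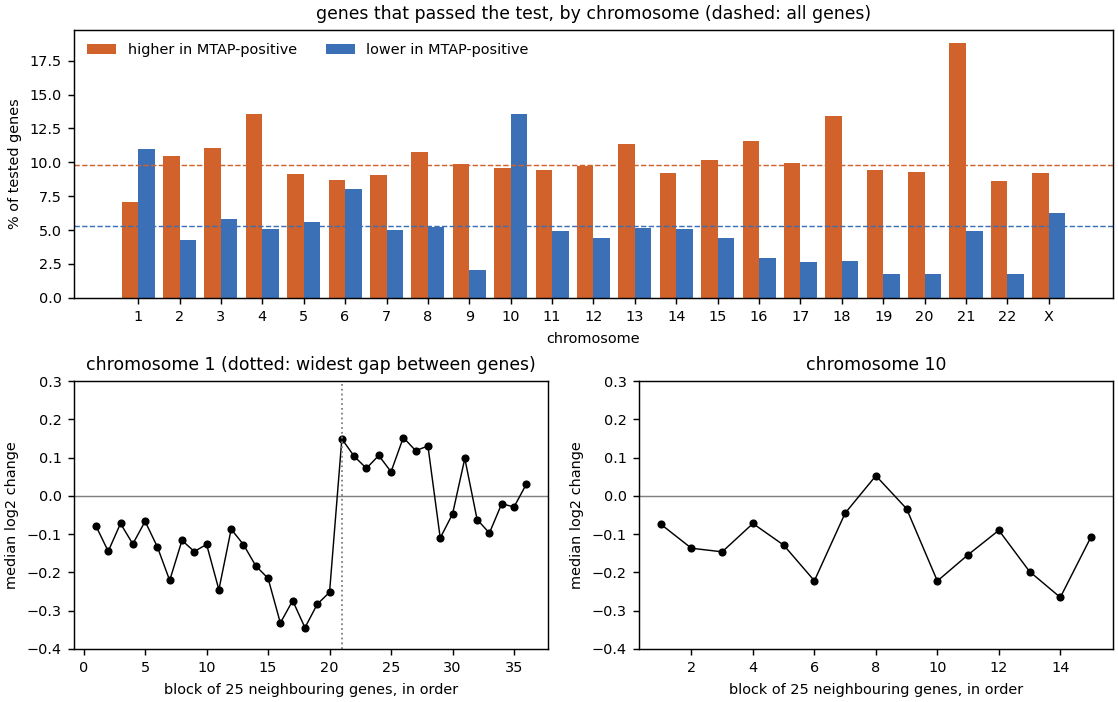
Top, share of tested genes per chromosome that were higher (orange) or lower (blue) in MTAP-positive cells, with dashed lines at 9.83% and 5.31% for all genes. Bottom, median log2 change in blocks of 25 neighbouring genes along chromosomes 1 and 10. On chromosome 1 the blocks wholly before the widest gap between genes (dotted) lie below 0. The block that spans the gap and the next ones lie above 0, and several later blocks lie below 0 again.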

How the data were processed

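RNA of 9 HT1080 cultures was measured on Affymetrix arrays, 3 per group. Per the submitters' processing notes the authors used RMA, and the table they deposited holds log2 signals (version and settings: not given in the sources used here). It lists 54675 probe sets, of which 17474 have values. Each of these reached 6.64, the log2 of 100, on 3 or more arrays, so dim genes are left out. A gene dim in MTAP-negative cells could enter through MTAP-positive cells with or without inhibitor. A gene dim in those cells needed all 3 MTAP-negative arrays. Of the changed genes, 168 had an MTAP-negative mean below 6.64, and 58 others had only the MTAP-positive mean below it. Array medians ran from 8.24 to 8.38. The number of arrays limits precision, and p-values measure only the spread between these arrays.

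Control probe sets (8) were left out, and all 17466 others were fitted with limma 3.58.1 in R 4.3.3 (lmFit, default eBayes, 3 groups as levels over 9 arrays). Benjamini-Hochberg adjustment covered all of them, with 0.05 as the threshold, and 2586 probe sets passed (14.8%). A gene is read from its 1-symbol probe set of highest mean (15485 such probe sets). The script was tested on simulated data. Where a group mean lay below 6.64, folds are counted from that level. Same-numbered arrays of the 2 groups deviated together (correlations 0.28, 0.22 and 0.25 over probe sets), so the numbers were treated as a possible pairing. The main fit, with its SEs and p-values, did not use this pairing. The replicate block was fitted as an alternative.

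The members and gene lists were chosen with earlier results of these data known. Named genes were MTAP, the 24 largest rises and falls, genes whose probe sets agree or disagree, the most changed abundant genes, and per list up to 5 changed members, those passing all alternatives preferred, and 2 others of high mean. The remaining metallothionein and clock genes, GRB10, SEMA3A, DHRS3, SERPINH1, ETS2, the listed markers COL1A1 and CD44, and the chromosome regions were chosen after their values were seen. Alternatives covered the 2 groups alone, the block, an ACTB covariate, centring, quantile normalisation, filters, array weights, eBayes settings, probe set choice and leaving out each array. Some results are not reported here.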

Additional observations from a re-analysis of the deposited data

How the results depend on the processing

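Settings changed how many genes passed more than which way they moved. With only the 2 groups fitted 740 genes passed (512 higher, 228 lower), with the ACTB covariate 501 (380 and 121), and without the 2 arrays of lowest ACTB ratio, MTAP-negative replicates 2 and 3, 145 (115 and 30). That last setting was chosen after seeing the data and assumes that the lone MTAP-negative array varies like the other groups. With the replicate block 2040 passed, of which 782 were lower, and with the block and only the 2 groups 802 (551 and 251). Centring gave 789 lower genes. Leaving out single arrays gave 813 to 1646 genes, 563 to 1118 higher and 250 to 528 lower, with the lowest count in each case without MTAP-negative replicate 3. All 1431 genes kept their direction under the settings named so far, but most of these settings could hardly turn it. Fitting 2 groups or the block leaves the difference of the group means as it was. Leaving out arrays cannot turn a gene whose groups do not overlap, as in 1429 of the 1431. Raising values to 6.64 kept the sign of 1423, and the mean of a gene's probe sets that of 1421. With only specific probe sets 998 of the 1017 changed genes that had a value kept their sign.

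Choosing other probe sets turned some named genes. With only specific probe sets F2R became -0.044, PDLIM7 -0.017, LTAP1 -0.78 and SSR1 0.45. With the mean of a gene's probe sets BICD1 became 0.061, LARP6 0.10 and PDCD2 0.17. The replicate block changed the call of no gene named here except AXL and CSNK1E. Among the lists described above it gave 7 higher and 2 lower contractile genes, 5 higher Notch genes, 7 higher PI3K, AKT and mTOR regulators, 4 higher and 7 lower pyrimidine genes, 11 higher fatty acid oxidation genes, 4 higher and 2 lower complement genes, 5 higher glycosylation genes, 3 lower proteasome genes and 3 lower ER to Golgi genes. The ACTB 5′ minus 3′ gap was 0.56 to 1.42 when single arrays were left out, and exact sign-flip p = 0.25 within same-numbered pairs, the smallest that 3 pairs allow. At 3 arrays per group, a log2 change had an SE of 0.13 at the median gene, so small changes were often not detectable.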
